A study of Mus musculus with 12 samples.

Results

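The genes described are 34 subunit genes of the voltage-gated sodium, calcium and HCN channels, taken from a fixed list of names and matched by Ensembl ID to the read counts of 12 mouse hippocampus libraries. All 34 of the 34 listed genes passed the filter on low values, a sum above 20 counts over all libraries, and were tested, among 22592 tested genes, 35930 genes with at least 1 count and 55421 genes listed. The mice were wild type (WT) or Fmr1-KO, a knockout model of fragile X syndrome, on a C57BL/6 background. They were injected intraperitoneally 5 times from 2 months of age with vehicle or with Nutlin-3, an inhibitor of the interaction between MDM2 and p53, at 10 mg/kg, and hippocampi were collected at 6 months of age, 4 months after the last injection. Vehicle-injected mice formed the groups WT-Veh and KO-Veh, Nutlin-3-injected mice formed WT-Nut3 and KO-Nut3, and each of the 4 held 3 libraries, 1 per mouse, and whether these mice also carried a reporter transgene is not given in the sources used here.

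Voltage-gated sodium channels open on depolarization and carry the upstroke of the action potential, and each consists of a large pore subunit with smaller beta subunits that set its surface level and kinetics. Voltage-gated calcium channels couple electrical activity to transmitter release, dendritic signaling and burst firing, and their pore subunits work with alpha2delta and cytoplasmic beta subunits, while most of the gamma-subunit genes of the brain encode transmembrane AMPA receptor regulatory proteins (TARPs). HCN channels open on hyperpolarization and pass the pacemaker current that sets resting potential and rhythmic firing.

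Messenger RNA was purified on poly-T beads and counted per gene without strand information, and levels are given as CPM, a gene's counts relative to all counts on genes in its library, with library sizes scaled by the TMM method. Reads counted on genes ranged from 17150820 to 19562517 in WT-Veh, from 17949695 to 20040482 in WT-Nut3, from 17569438 to 19426101 in KO-Veh and from 17221891 to 18234575 in KO-Nut3. Fmr1, the gene targeted in the KO line, was at 79.5, 75.3 and 77.7 CPM in WT-Veh, 75.2, 74.0 and 78.3 in WT-Nut3, 32.7, 32.5 and 37.3 in KO-Veh and 30.6, 28.5 and 35.7 in KO-Nut3, each group listed by rising animal number (RH2, RH5, RH15; RH1, RH9, RH14; RH7, RH10, RH16; RH6, RH8, RH13). Each of the 6 KO libraries was below each of the 6 WT libraries for Fmr1 and still held reads on the gene. In whole tissue, fewer cells of a type and less RNA per cell cannot be told apart, and p-values measure the spread between the 3 mice of a group.

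The channel genes differed widely in level. Per kilobase of exon, averaged over the 12 libraries, the highest were the TARP gene Cacng8 at 66.9 ± 7.77 CPM per kb (SD, n = 12 libraries), the sodium channel beta gene Scn2b at 65.9 ± 2.94 and the TARP gene Cacng7 at 60.8 ± 4.42, and these neighbors in the order did not differ beyond their spread. The next were Cacnb3 at 52.4 ± 5.83, Hcn2 at 50.7 ± 5.24 and Scn3b at 50.2 ± 6.03 CPM per kb, which also lay within each other's spread. Auxiliary subunits took 5 of the 6 highest places, with Hcn2 the pore gene among them. This order depends on the length used, all annotated exons of a gene together, which was 25.2 kb for Cacna1e and 2.345 kb for Cacng8. By CPM alone Cacna1e was the higher of these, at 627 against 157. Sodium channel pore genes were led by Scn8a at 32.2 ± 1.99 and Scn2a at 29.4 ± 1.62 CPM per kb, the main excitatory-neuron channels of the axon. Among the calcium channel pore genes, Cacna1e, the R-type channel, was highest at 24.9 ± 2.58 CPM per kb, followed by the P/Q-type gene Cacna1a at 19.8 ± 1.43 and the T-type gene Cacna1h at 19.6 ± 2.04, and the lowest was the L-type gene Cacna1d at 7.23 ± 0.314. At the bottom of the order stood Scn7a, the sodium-sensing channel of glia, at 0.744 ± 0.181, Scn9a, a channel of peripheral sensory neurons, at 0.489 ± 0.0980, Hcn4 at 0.444 ± 0.306 and Cacna2d4 at 0.223 ± 0.0678 CPM per kb. The SD of Hcn4 was the widest of these relative to its level, and its neighbors Scn9a and Hcn4 did not differ beyond their spread.

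**Figure D1:**
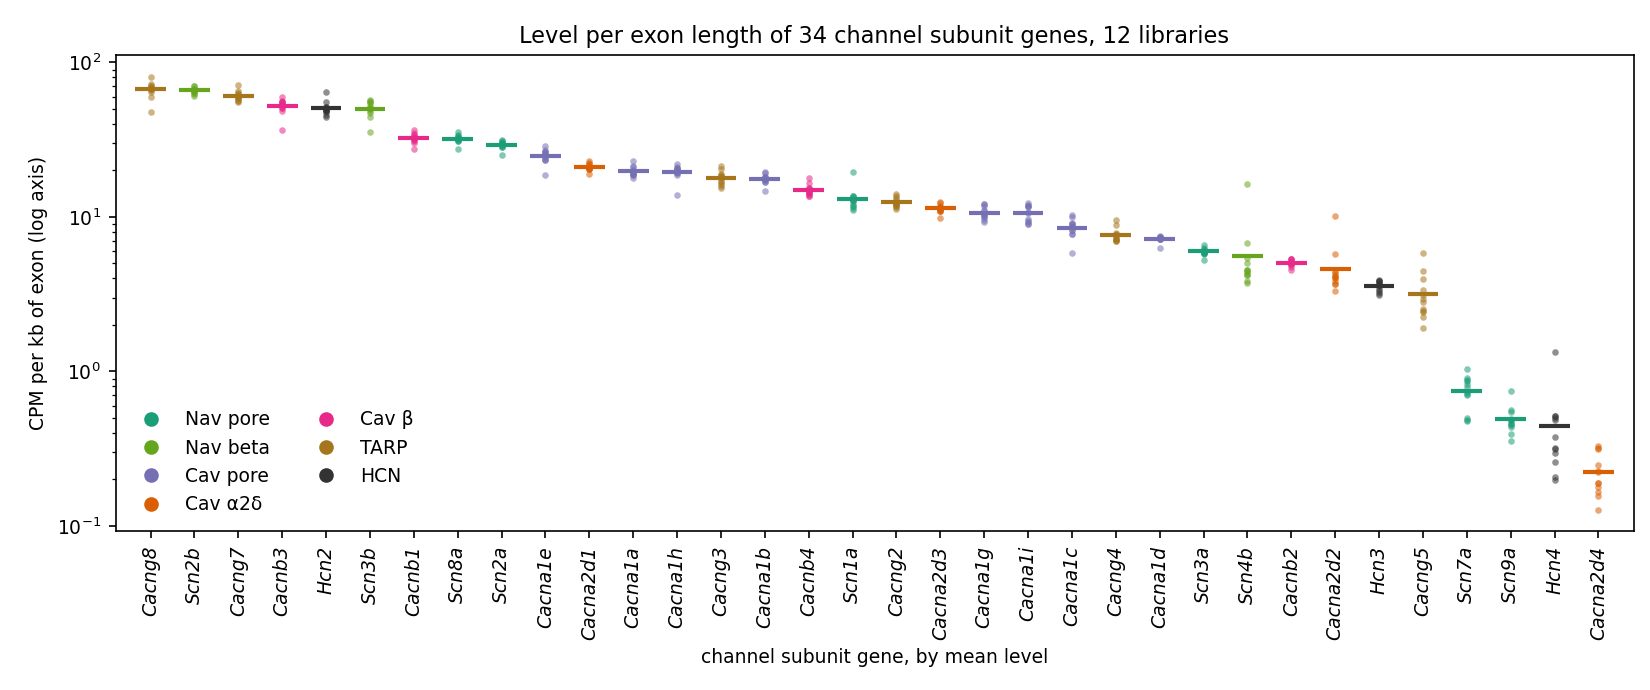
Mean level per kilobase of exon (CPM per kb, log axis) of the 34 channel genes over the 12 libraries, ordered from highest to lowest, with a dot for each library, a horizontal bar for the mean and colors for the role of each subunit. Cacng8 and Scn2b lead at 66.9 and 65.9 CPM per kb, and Cacna2d4 is lowest at 0.223.

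KO-Nut3 RH6 stood apart from the other 11 libraries before any comparison was made. It held the highest value of 13 channel genes and the lowest value of 16, together 29 of 34 or 85.3%, whereas over all tested genes it held an extreme for 30.3%. The next library in this count, WT-Veh RH2, held an extreme for 11 channel genes or 32.4%, against 21.6% of all tested genes. Leaving out RH6 lowered the median SD of log2 CPM of the channel genes from 0.139 to 0.0987, against a change from 0.130 to 0.117 for the 13543 tested genes within the same range of mean level.

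Genes highest in RH6 included Scn4b, Hcn4, Cacna2d2, Cacng5 and Scn1a, and genes lowest in it included Cacna1c, Cacna1h, Cacnb3, Cacng8 and Scn3b. Relative to the median of the other 11 libraries, its level was 4.18 times for Hcn4, 3.65 times for Scn4b, 2.49 times for Cacna2d2, 2.07 times for Cacng5 and 1.53 times for Scn1a. On the low side it was 0.666 times for Cacna1c, 0.678 times for Cacna1h, 0.679 times for Cacnb3, 0.696 times for Cacng8 and 0.696 times for Scn3b. Shifts of this kind ran in both directions within the same protein family.

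Several marker lists moved with that library. The summed level of 12 thalamus markers was 475 CPM in RH6 and 218 to 278 CPM in the other 11 libraries, with 6 of the 12 markers highest in RH6, 1 (Adarb2) lowest and none at 0 in all libraries. Slc17a6, the vesicular glutamate transporter of thalamic neurons, was at 113 CPM in RH6 and at 8.42 to 22.2 CPM elsewhere, and Tcf7l2, a thalamic transcription factor, at 32.7 CPM against 4.75 to 7.33. Ntng1, the most abundant gene of that list, was at 51.7 CPM in RH6 and between 40.9 and 53.0 CPM in the others, so that not every marker moved. The summed level of 11 CA pyramidal neuron markers was 1147 CPM in RH6 and 1591 to 1899 CPM in the others, with 9 of the 11 lowest there and Nptx1, the most abundant, at 523 CPM against 699 to 898. Dentate granule neuron markers summed to 656 CPM in RH6 and 710 to 934 CPM in the others, with 7 of 11 lowest there, and myelinating oligodendrocyte markers summed to 6361 CPM against 3724 to 6133, with 7 of 10 highest there. The 12 interneuron markers summed to 1564 CPM in RH6 and to 1435 to 1564 CPM in the others, yet RH6 was the highest library for 6 of them and the lowest for the other 6. Among these, Gad2, which makes the transmitter GABA, was at 275 CPM against 147 to 181, Pvalb, the marker of parvalbumin interneurons, at 27.1 CPM against 16.2 to 25.6, and Sst, the marker of somatostatin interneurons, at 113 CPM against 171 to 211. Gad1, the most abundant, was at 365 CPM against 287 to 329. The thalamus score, the mean log2 CPM of its 12 markers, was 4.54 in RH6 and 3.35 to 3.63 in the other 11 libraries. In the 12-library fits that term therefore acted much like leaving out RH6, so the fits are not separate tests. The part of these cell types in the channel results was not tested beyond the fits with the thalamus score as a term and without RH6.

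**Figure D2:**
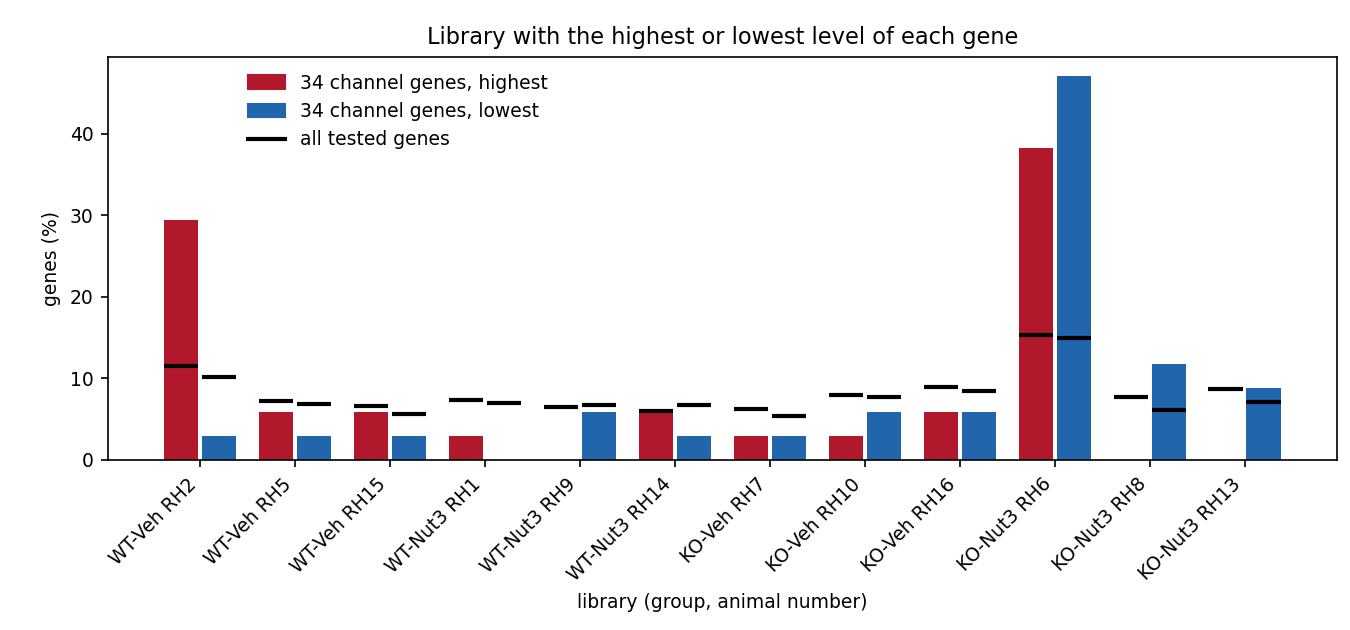
For each of the 12 libraries, the percentage of the 34 channel genes for which that library held the highest (red bars) or the lowest (blue bars) of the 12 values, with black lines for the same percentages of all tested genes. KO-Nut3 RH6, highest for 13 and lowest for 16 of the 34, has the tallest bar of both colors.

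**Figure D3:**
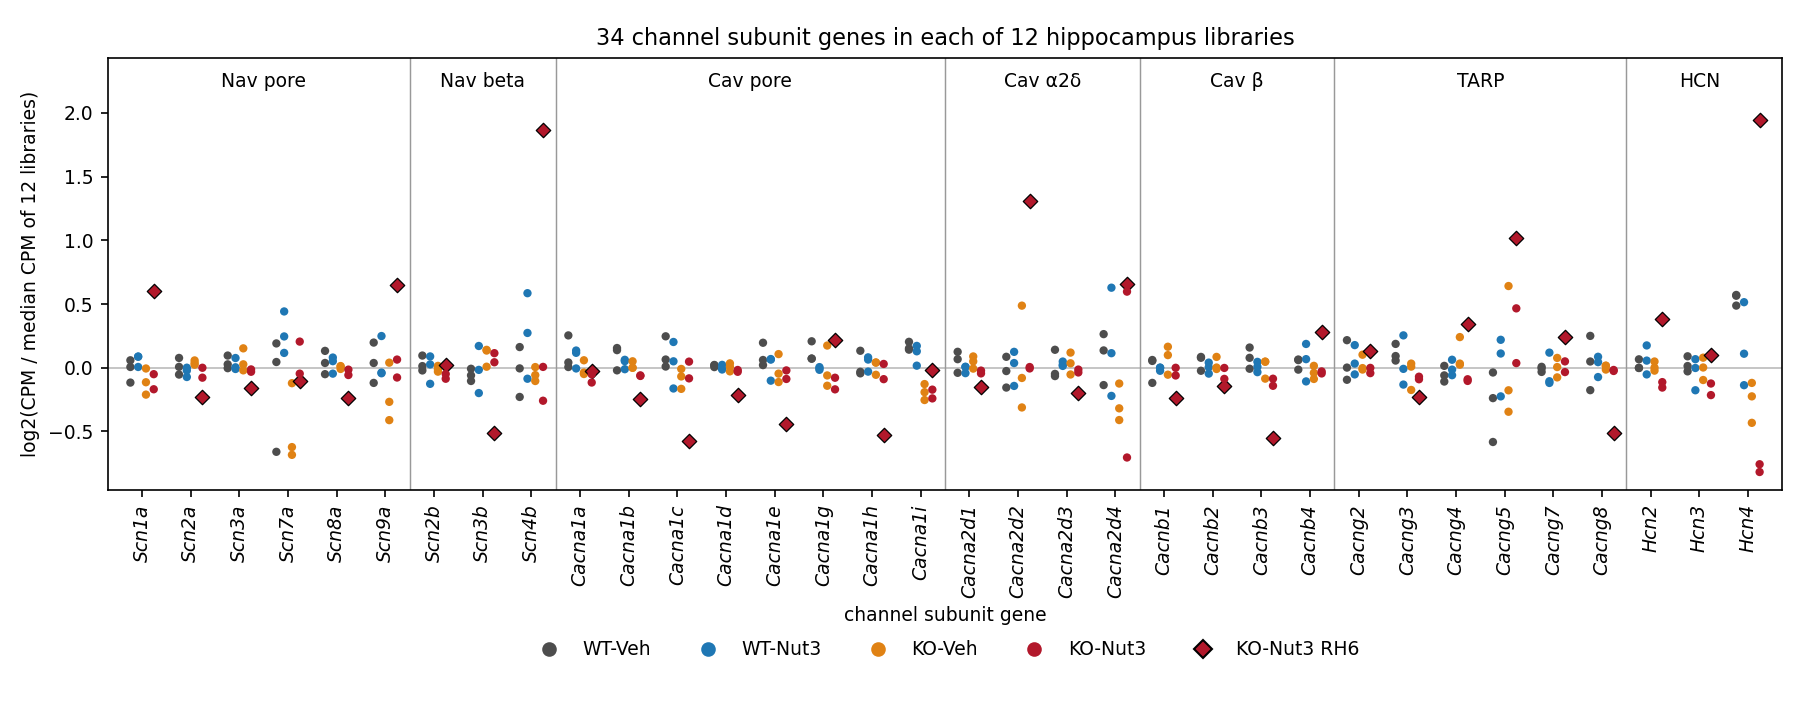
Level of each of the 34 channel genes in each of the 12 libraries as the log2 ratio to the gene's median over the 12 libraries, with genes grouped by role, a dot for each library colored by group and a diamond for KO-Nut3 RH6. The diamonds lie farthest from 0 for most genes, above it for Hcn4, Scn4b and Cacna2d2 and below it for Cacna1c, Cacna1h and Cacnb3, while for Cacna1i the dots of the KO libraries all lie below those of the WT libraries.

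None of the 34 genes passed an adjusted p of 0.05 in any of the 8 comparisons with edgeR's quasi-likelihood test, the tool used throughout unless another is named. The comparisons share libraries, so their counts are not independent of each other. For each, the share of the 34 genes at an unadjusted p under 0.05 is set beside the same share of all 22592 tested genes.

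Genotype was compared first under vehicle, where the question is what loss of FMRP did without drug. For KO-Veh against WT-Veh, 0 of 34 channel genes were called, against 0.0177% of all tested genes. At an unadjusted p under 0.05, 4 of 34 (11.8%) were lower, against 4.12% of all tested genes, and 1 (2.94%) was higher, against 3.08%. The 5 became 3 without WT-Veh RH2 or without KO-Veh RH10. With all 12 libraries in one fit, 1 was lower and 0 higher, where 1262 of the 22592 tested genes had such a p. With DESeq2, 1 channel gene was called, Cacna1i, where 0.174% of the genes with an adjusted p were. The median log2 fold change of the 34 genes was -0.04 and that of all tested genes was -0.0043.

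All 6 KO libraries were then set against all 6 WT libraries with treatment as a second term. In that comparison 0 of 34 were called, against 0.00443% of all tested genes, which was Fmr1 alone. At an unadjusted p under 0.05, 7 of 34 (20.6%) were lower, against 4.36% of all tested genes, and 1 (2.94%) was higher, against 3.8%. DESeq2 called Cacna1i, where 0.598% of the genes with an adjusted p were called. Without RH6, edgeR called 1 of 34, Cacna1i again, against 0.0443% of all tested genes, with 8 of 34 (23.5%) lower, against 5.14%, and 1 higher, against 3.74%. The 8 genes below that p in either direction with all libraries became 4 without WT-Nut3 RH1 and 5 without WT-Veh RH2 or WT-Nut3 RH14. Of the 34 log2 fold changes, 27 were below 0, with a median of -0.04 against 0.01 over all tested genes.

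Nutlin-3 was compared with vehicle in KO mice, the contrast in which the treatment could act on the mutant. For KO-Nut3 against KO-Veh, 0 of 34 channel genes were called, against 0.199% of all tested genes, and DESeq2 called 0, against 1.28%. At an unadjusted p under 0.05, 1 (2.94%) was lower, against 1.85%, and 1 was higher, against 5.75%. Without RH6, 0 of 34 were called, against 0.288%, with 1 lower, against 1.72%, and 1 higher, against 4.66%. Leaving out another library gave 0 (KO-Veh RH10), 1 (KO-Veh RH7), 3 (KO-Veh RH16), 5 (KO-Nut3 RH13) or 8 (KO-Nut3 RH8) genes in either direction. With all genes of at least 1 count, 5 of 34 were lower and 7 higher, where 2583 of 35930 genes had such a p. With all 12 libraries in one fit, 4 were lower and 2 higher, where 1994 of 22592 genes did. The spread of the estimates shrank with RH6 left out, from a median SE of 0.11 to 0.06 on the log2 scale over the 34 genes.

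In WT mice no channel gene reached even an unadjusted p under 0.05 for Nutlin-3. For WT-Nut3 against WT-Veh, 0 of 34 were called by edgeR or DESeq2, where 0% of all tested genes were called by either tool, and 0 of 34 had an unadjusted p under 0.05 in either direction, against 1.34% of all tested genes lower and 1.84% higher. With 1 library left out, 0 to 2 had such a p, 2 without WT-Veh RH2, WT-Veh RH15, WT-Nut3 RH1 or WT-Nut3 RH9 and 1 without WT-Veh RH5. The 95% confidence intervals of 29 of the 34 log2 fold changes lay within 0.5 of 0 on both sides. For all Nutlin-3 against all vehicle libraries, 0 of 34 were called by edgeR, against 0%, and 0 by DESeq2, against 0.372%. There 3 of 34 (8.82%) were lower at an unadjusted p under 0.05, against 2.28%, and 1 was higher, against 5.02%. These 4 became 8 without WT-Veh RH15 or KO-Nut3 RH13, 2 without WT-Veh RH2 or RH5 and 1 without KO-Veh RH7 or RH10.

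The remaining contrasts asked how treated KO mice stood against each WT group and whether the Nutlin-3 difference depended on genotype. For KO-Nut3 against WT-Veh, 0 of 34 were called by edgeR, against 0.00443% of all tested genes, while DESeq2 called Cacng5, against 1.03%. At an unadjusted p under 0.05, 5 of 34 (14.7%) were lower, against 3.55%, and 1 was higher, against 5.61%. Without RH6, 0 of 34 were called, against 0.0221%, with 8 (23.5%) lower, against 3.97%, and 2 higher, against 4.55%, and without WT-Veh RH2 the 6 genes in either direction became 3. For KO-Nut3 against WT-Nut3, 0 of 34 were called by edgeR, against 0.00443%, and 0 by DESeq2, against 0.031%, with 4 of 34 lower, against 2.08%, and 0 higher, against 2.8%. Without RH6, 0 of 34 were called, against 0.00443%, with 7 (20.6%) lower, against 2.05%, and 0 higher, against 2.06%, and without WT-Nut3 RH1 or RH14 the 4 became 1. For the genotype by Nutlin-3 interaction, 0 of 34 were called by edgeR, against 0%, and 0 by DESeq2, against 0.00443%, and 0 of 34 had an unadjusted p under 0.05, against 1.27% of all tested genes lower and 2.9% higher. Without RH6, 0 of 34 were called, against 0%, with 1, Hcn2, lower at -0.19, against 1.19%, and 0 higher, against 2.2%. That number was also 1 without WT-Veh RH2, and 2 without KO-Nut3 RH8 or RH13.

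**Figure D4:**
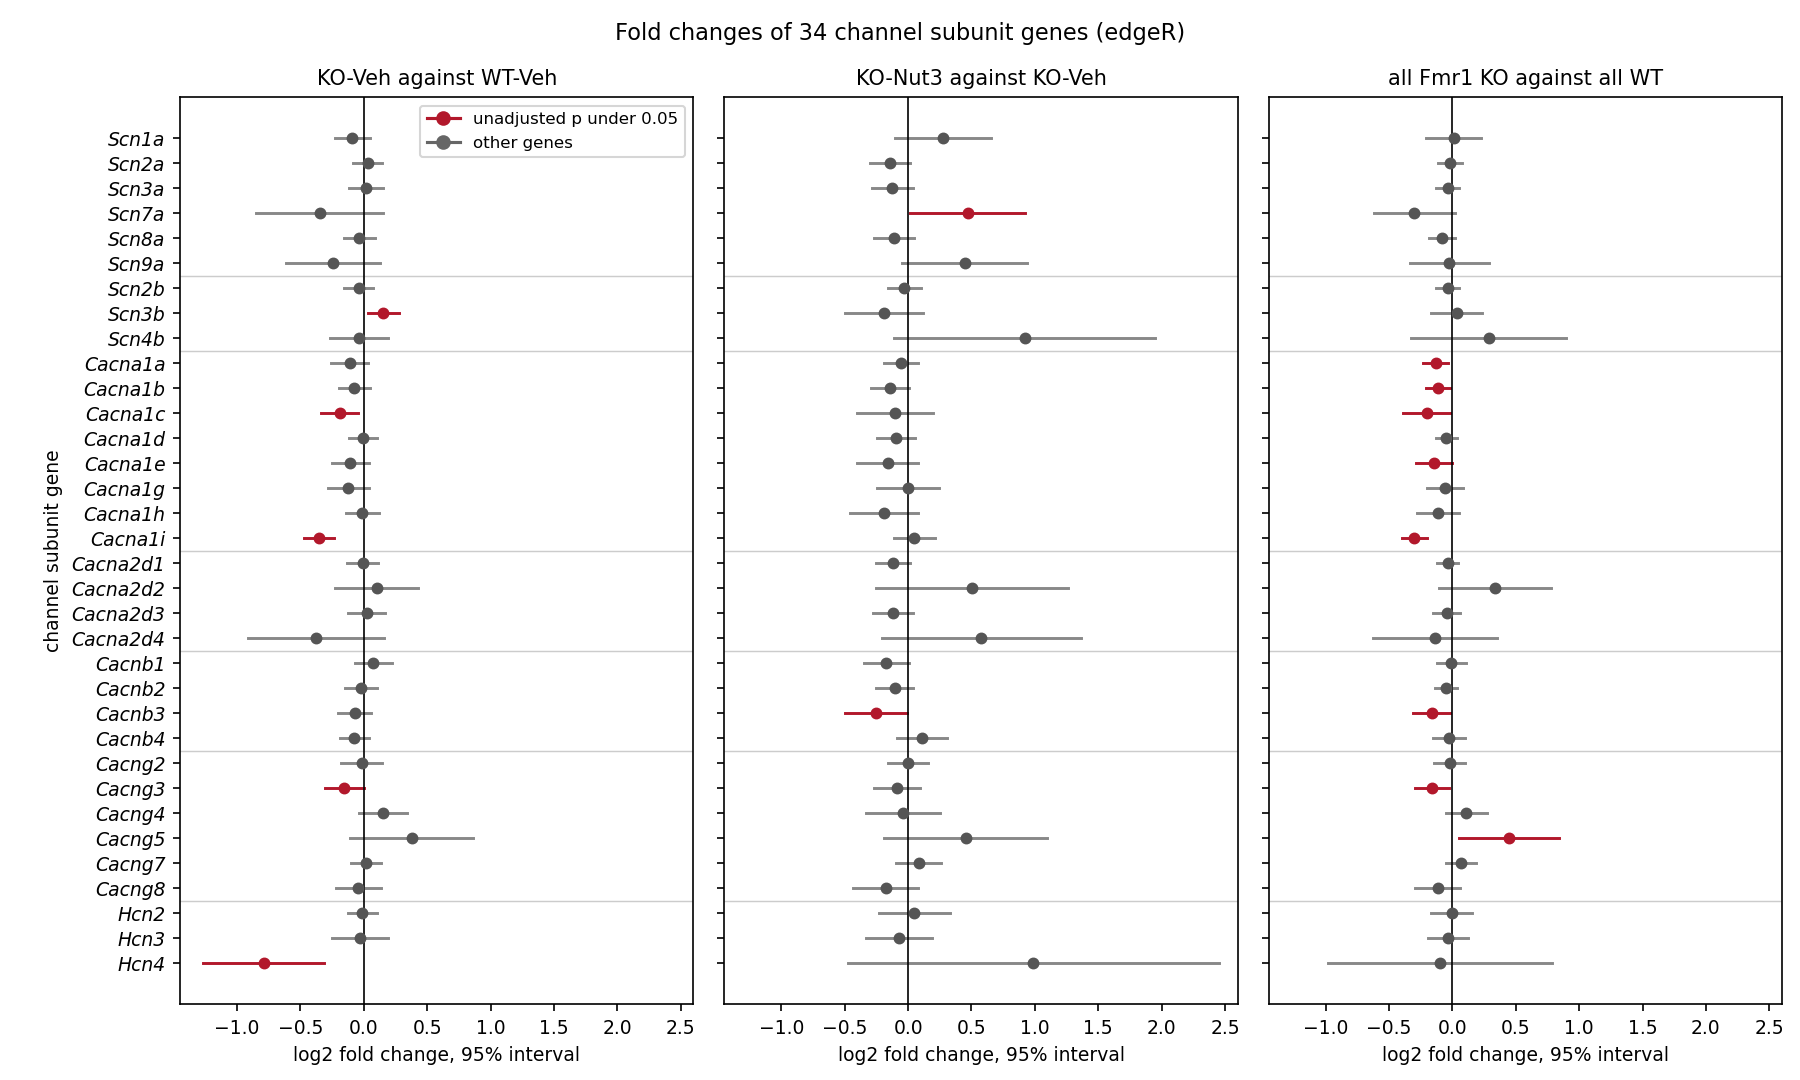
Log2 fold changes of the 34 channel genes with 95% confidence intervals in KO-Veh against WT-Veh, KO-Nut3 against KO-Veh, and all KO against all WT libraries, with red for an unadjusted p under 0.05. Cacna1i lies below 0 with its whole interval in both genotype panels, at -0.36 and -0.30, and the widest intervals in the KO-Nut3 panel are those of Hcn4 and Scn4b.

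Cacna1i, a T-type calcium channel pore subunit that opens near resting potential and supports burst firing, had the smallest p of the 34 genes in KO-Veh against WT-Veh and in all KO against all WT libraries. It is gene ENSMUSG00000022416 on the plus strand of chromosome 15, chr15:80287238-80398279 in mm10, and no other annotated gene overlaps it. Its level was 117, 116 and 121 CPM in WT-Veh, 118, 106 and 115 in WT-Nut3, 92, 96.2 and 88.2 in KO-Veh and 104, 93.3 and 89.0 in KO-Nut3. All 6 WT libraries were above all 6 KO libraries, and the nearest of the KO libraries to the WT range was RH6.

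Group means of Cacna1i were 116 ± 5.01 CPM (SD, n = 6) in WT and 93.8 ± 5.77 (SD, n = 6) in KO. In KO-Veh against WT-Veh the log2 fold change was -0.36 ± 0.06 (SE), with a 95% confidence interval from -0.47 to -0.24, with an adjusted p of 0.0796 with edgeR and 0.000458 with DESeq2. In all KO against all WT libraries it was -0.30 ± 0.05 (SE), interval -0.40 to -0.20, with an adjusted p of 0.0650 with edgeR and 7.06e-06 with DESeq2. It therefore lay just outside the threshold with edgeR and inside it with DESeq2, and without RH6 the edgeR value was -0.34 ± 0.04 (SE) with an adjusted p of 0.00295. Without WT-Nut3 RH9 the edgeR adjusted p of the same comparison was 0.0484, and without any 1 of the other 10 libraries it rose, to between 0.0928 (WT-Veh RH15) and 0.247 (KO-Veh RH7), with log2 fold changes from -0.31 to -0.28. In KO-Nut3 against WT-Nut3 Cacna1i was called by neither edgeR nor DESeq2. With 1 library left out its edgeR log2 fold change there ran from -0.31 to -0.20, at an adjusted p of 0.620 or more.

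The difference in Cacna1i had nearly the same size in both ranges of animal numbers, which also differed in their share of multimapping reads, 3.07% to 3.22% in animals RH1 to RH8 and 3.33% to 3.55% in RH9 to RH16. The log2 ratio of the KO mean to the WT mean was -0.28 in animals RH1 to RH8 and -0.32 in RH9 to RH16, with 3 WT and 3 KO libraries in each. With the number range as a term, the edgeR adjusted p in all KO against all WT was 0.0196, with the thalamus score as a term it was 0.00233, and with a term for the choroid plexus score it was 0.125. In KO-Veh against WT-Veh the edgeR adjusted p with these terms was 0.0202, 0.0182 and 0.137. The thalamus score ran from 3.35 to 3.54 in those libraries, a range too narrow to test the part of thalamic tissue there. For Nutlin-3 against vehicle the edgeR log2 fold change of Cacna1i was 0.05 (interval -0.11 to 0.21) in KO mice and -0.06 (interval -0.18 to 0.07) in WT mice, and the interaction was 0.11 (interval -0.09 to 0.30) with an adjusted p of 0.994.

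The summed level of the CA pyramidal neuron markers was at 1702, 1725 and 1710 CPM in KO-Veh and 1899, 1670 and 1695 CPM in WT-Veh. The list went both ways in KO-Veh against WT-Veh, with 6 of its 11 log2 fold changes below 0 and a median of -0.07. In all KO against all WT 10 of 11 were below 0, with a median of -0.18, and 4 were lower at an unadjusted p under 0.05 (Wfs1, Mpped1, Spink8 and Homer3), against 4.36% of all tested genes, with 0 called by edgeR. Without RH6, 8 of 11 were below 0 with a median of -0.08. These 4 were lower at such a p, against 5.14% of all tested genes, and 1 of them was called, against 0.0443%. In KO-Veh against WT-Veh 1 of the 11 was called with edgeR, where 0.0177% of all tested genes were: Wfs1, a CA1 marker, at a log2 fold change of -0.44 and an adjusted p of 0.0478. Wfs1 was at 124, 125 and 134 CPM in WT-Veh and 90.6, 90.2 and 102 in KO-Veh. Whether the lower Wfs1 and the lower Cacna1i arise in the same cells was not tested.

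To place these genes in the genome, the 250 bases before the RefSeq start are shown for 3 of them, Cacna1i and Hcn4 as the genes with the smallest p among those lower in KO-Veh than in WT-Veh, and Cacng5 as the gene with the smallest p among those whose KO-Nut3 level exceeded that of WT-Veh. They are from RefSeq on GRCm38.p6, written 5′ to 3′ on the strand of the gene. The RefSeq start used was the nearest to the annotated gene start whose window stayed outside the gene. It lay 463 bases upstream of that gene start for Hcn4 and at it for Cacna1i and Cacng5. Capitals mark a GC box (GGGCGG, or CCGCCC on the other strand) or a CCAAT box (CCAAT, or ATTGG on the other strand). TATA boxes (TATAAA on either strand) were also searched.
Cacna1i, chr15:80286988-80287237, plus strand: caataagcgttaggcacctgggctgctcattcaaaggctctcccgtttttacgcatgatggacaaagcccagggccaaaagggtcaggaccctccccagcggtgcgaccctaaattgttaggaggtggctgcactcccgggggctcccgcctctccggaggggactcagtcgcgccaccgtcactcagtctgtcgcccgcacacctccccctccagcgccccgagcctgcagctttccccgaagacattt
Hcn4, chr9:58822699-58822948, plus strand: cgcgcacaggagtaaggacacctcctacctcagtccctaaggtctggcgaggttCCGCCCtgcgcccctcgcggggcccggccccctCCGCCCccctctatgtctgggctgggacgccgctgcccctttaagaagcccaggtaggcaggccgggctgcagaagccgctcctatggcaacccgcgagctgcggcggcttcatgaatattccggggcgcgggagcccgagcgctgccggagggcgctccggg
Cacng5, chr11:107915056-107915305, minus strand: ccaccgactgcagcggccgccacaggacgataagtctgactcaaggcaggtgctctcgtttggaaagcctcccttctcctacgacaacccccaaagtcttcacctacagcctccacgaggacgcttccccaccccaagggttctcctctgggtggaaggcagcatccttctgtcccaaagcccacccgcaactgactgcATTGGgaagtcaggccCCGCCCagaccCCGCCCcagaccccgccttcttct

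The Cacna1i window held none of the 3 motifs, with 62.4% G and C and 16 CG dinucleotides. The Hcn4 window held 2 GC boxes, with 71.2% G and C and 25 CG dinucleotides, and the Cacng5 window held 2 GC boxes and 1 CCAAT box, with 62% G and C. Among 32851 RefSeq windows of that length, 32.7% held a GC box, 33.8% a CCAAT box and 12.4% a TATA box. RefSeq windows were found for 26 of the 34 channel genes, of which 15 held a GC box, 9 a CCAAT box and 2 a TATA box in at least 1 of their windows, a gene having 1 window or several. A match is a run of letters and not a shown binding site.

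The other high-voltage-activated and T-type pore genes shared the sign of Cacna1i but not its distance from the spread. All 8 calcium channel pore genes had a log2 fold change below 0 in KO-Veh against WT-Veh, from -0.36 to -0.01, and in all KO against all WT, from -0.30 to -0.05, where 27 of all 34 channel genes were below 0. In the latter 5 of the 8 had an unadjusted p under 0.05, against 4.36% of all tested genes at such a p and lower, and without RH6 4 of the 8 did, against 5.14%. Apart from Cacna1i, their smallest edgeR adjusted p in all KO against all WT was that of Cacna1a. In KO-Veh against WT-Veh the sign was not fixed for Cacna1h and Cacna1d. Cacna1h reached 0.053 under another setting, and Cacna1d reached 0.011 with 1 library left out.

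Cacna1a, the P/Q-type pore of most central presynaptic terminals, was at 264, 228 and 222 CPM in WT-Veh, 240, 221 and 243 in WT-Nut3, 216, 214 and 231 in KO-Veh and 218, 204 and 214 in KO-Nut3. The genotypes overlapped, since KO-Veh RH16 was above 3 WT libraries. Its log2 fold change in all KO against all WT was -0.13 ± 0.05 (SE), with an edgeR adjusted p of 0.477, and the within-range log2 ratios were -0.20 in animals RH1 to RH8 and -0.06 in RH9 to RH16. Its counts on the separate strands summed to 110% of the unstranded count, which leaves out reads shared with an overlapping gene.

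Cacna1b, the N-type presynaptic channel, was at 191, 193 and 171 CPM in WT-Veh, 180, 172 and 181 in WT-Nut3, 180, 174 and 174 in KO-Veh and 146, 166 and 167 in KO-Nut3. Each KO-Nut3 library was below each WT library, while KO-Veh overlapped with WT. In KO-Nut3 against WT-Veh its log2 fold change was -0.21 ± 0.08 (SE), with an edgeR adjusted p of 0.432. In all KO against all WT it was -0.12 ± 0.04 (SE), at an adjusted p of 0.511 with edgeR.

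Cacna1c, the main L-type channel of hippocampal neurons, was at 218, 185 and 192 CPM in WT-Veh, 190, 164 and 212 in WT-Nut3, 175, 164 and 183 in KO-Veh and 123, 174 and 190 in KO-Nut3. KO-Veh and WT-Veh did not overlap, but the highest KO-Veh value and the lowest WT-Veh value were nearly equal, and the Nutlin-3 groups overlapped. In KO-Veh against WT-Veh the log2 fold change was -0.19 ± 0.07 (SE), with an edgeR adjusted p of 0.631.

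Cacna1e, the most abundant pore gene per kilobase among the calcium channels, ranged from 468 CPM in RH6 to 727 CPM in WT-Veh RH2, with 587 to 727 CPM in the 11 libraries other than RH6. Cacna1d was the steadiest, at 90.2 to 94.5 CPM in those 11 libraries and 79.4 CPM in RH6. The T-type genes Cacna1g and Cacna1h ranged from 94.4 to 123 CPM and from 135 to 214 CPM, with RH6 highest of the 12 for the first and lowest for the second.

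**Figure D5:**
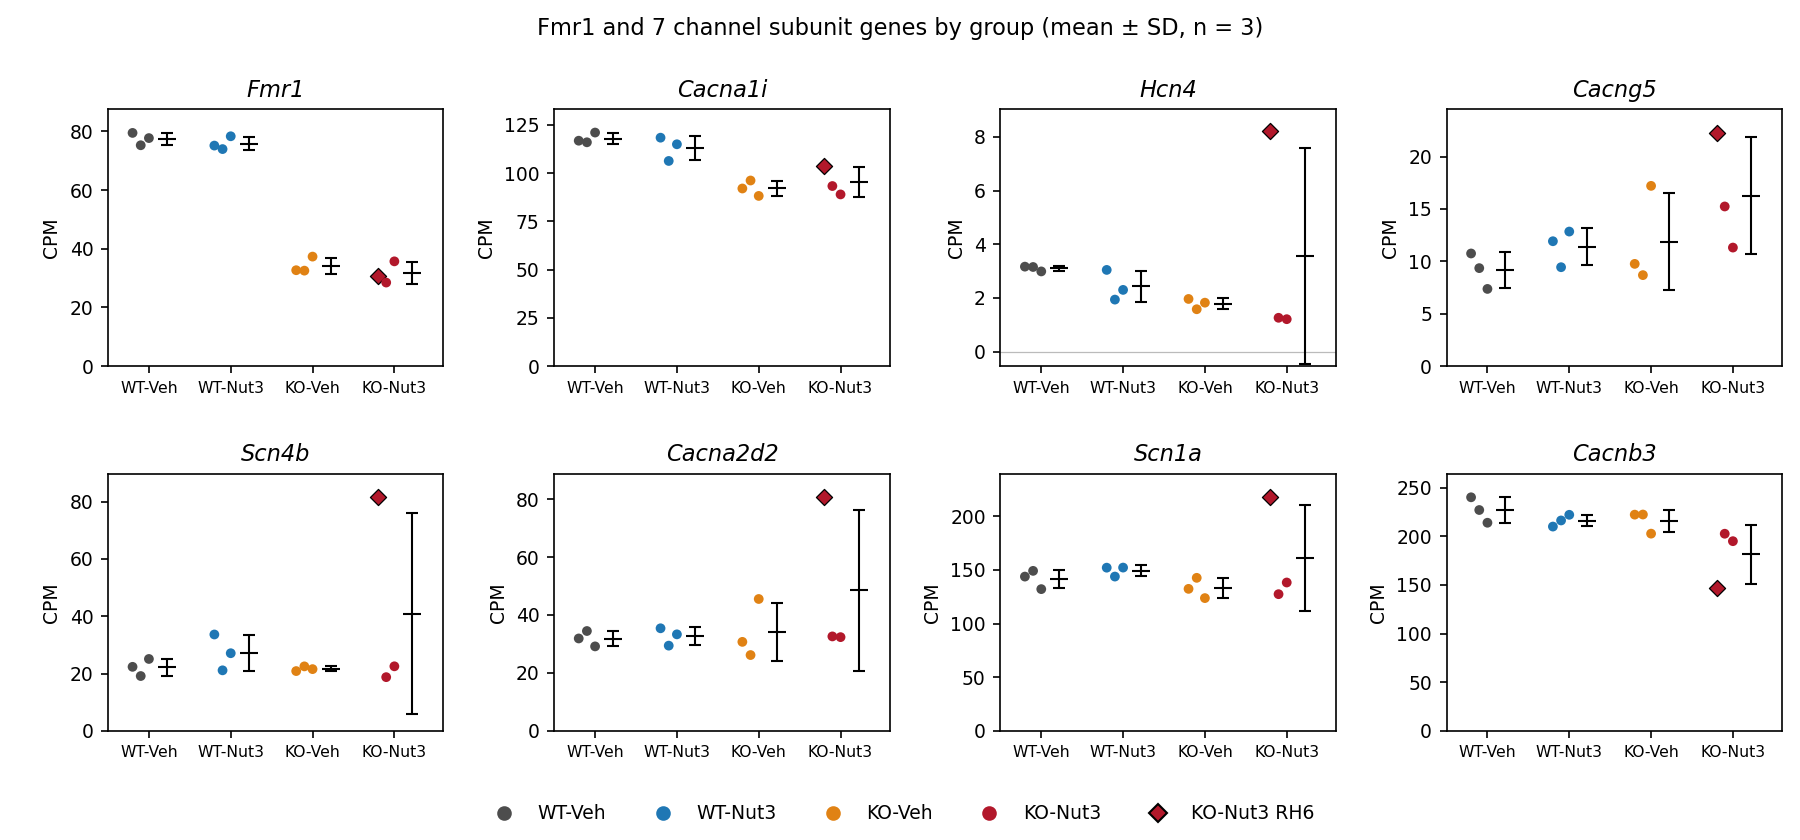
Levels (CPM) of Fmr1 and of 7 channel genes in each library of the 4 groups, with the group mean and SD (n = 3 per group) as bars and KO-Nut3 RH6 marked. Cacna1i separates by genotype in every library, while the highest KO-Nut3 value of Scn4b, Cacna2d2, Hcn4 and Scn1a is that of RH6.

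Among the sodium channel pore genes, Scn2a ranged from 322 to 400 CPM, Scn8a from 431 to 558 CPM and Scn3a, a channel most prominent before birth, from 66 to 82.0 CPM, with RH6 the lowest library for all 3. Scn1a, the sodium channel on which parvalbumin interneurons depend most, was at 144, 149 and 132 CPM in WT-Veh, 152, 144 and 152 in WT-Nut3, 132, 143 and 124 in KO-Veh and 218, 127 and 138 in KO-Nut3. RH6 stood alone at 218 CPM, since the other 11 libraries lay between 124 and 152 CPM. The log2 fold change of Scn1a in KO-Nut3 against KO-Veh was 0.28 ± 0.17 (SE), with an edgeR adjusted p of 0.752, and -0.0018 ± 0.07 (SE) without RH6.

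Scn7a was at 5.79, 6.41 and 3.55 CPM in WT-Veh, 6.09, 6.66 and 7.63 in WT-Nut3, 5.16, 3.50 and 3.65 in KO-Veh and 5.21, 6.47 and 5.44 in KO-Nut3. KO-Nut3 libraries were all above KO-Veh libraries, though the highest KO-Veh and the lowest KO-Nut3 value were nearly equal, and the pooled treatment groups overlapped. Its log2 fold change was 0.47 ± 0.20 (SE) in KO-Nut3 against KO-Veh, with an edgeR adjusted p of 0.634, and 0.42 ± 0.15 (SE) in all Nutlin-3 against all vehicle, with an adjusted p of 0.503. Scn9a, whose strand counts summed to 124% of its unstranded count, was highest in RH6 at 9.48 CPM and between 4.54 and 7.18 CPM elsewhere.

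Of the sodium channel beta genes, Scn2b was steady at 282 to 329 CPM. Scn3b was at 275, 258 and 266 CPM in WT-Veh, 241, 274 and 312 in WT-Nut3, 278, 305 and 304 in KO-Veh and 194, 285 and 300 in KO-Nut3. KO-Veh was above WT-Veh without overlap, while RH6 was the lowest library of all 12. In KO-Veh against WT-Veh the log2 fold change of Scn3b was 0.15 ± 0.06 (SE), with an edgeR adjusted p of 0.631.

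Scn4b, a beta subunit linked to resurgent sodium current in fast-firing neurons, was at 22.3, 19.1 and 25.1 CPM in WT-Veh, 33.6, 21.1 and 27.1 in WT-Nut3, 20.9, 22.5 and 21.5 in KO-Veh and 81.5, 18.7 and 22.5 in KO-Nut3. RH6 alone was above 33.6 CPM, and the other KO-Nut3 libraries lay close to the KO-Veh range. In KO-Nut3 against KO-Veh its log2 fold change was 0.92 ± 0.46 (SE), with an edgeR adjusted p of 0.695, and -0.07 ± 0.11 (SE) without RH6.

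The alpha2delta genes encode the subunits that bring calcium channels to the cell surface. Of these, Cacna2d2 was at 31.9, 34.5 and 29.2 CPM in WT-Veh, 35.4, 29.4 and 33.3 in WT-Nut3, 30.7, 26.2 and 45.5 in KO-Veh and 80.6, 32.6 and 32.3 in KO-Nut3. Its log2 fold change in KO-Nut3 against KO-Veh was 0.51 ± 0.34 (SE), with an edgeR adjusted p of 0.765, and -0.07 ± 0.18 (SE) without RH6. RH6 stood far above the others, the next value was that of KO-Veh RH16, and the groups overlapped.

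Cacna2d1 was at 284, 273 and 253 CPM in WT-Veh, 253, 262 and 262 in WT-Nut3, 269, 277 and 259 in KO-Veh and 234, 252 and 256 in KO-Nut3. Within KO the treated libraries were all below the vehicle libraries, and over both genotypes the treatments overlapped. In all Nutlin-3 against all vehicle its log2 fold change was -0.09 ± 0.04 (SE), with an edgeR adjusted p of 0.657. Cacna2d3 ranged from 86.4 CPM in RH6 to 109 CPM, and Cacna2d4 from 1.21 to 3.11 CPM.

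Among the cytoplasmic beta genes, Cacnb3 differed most. It was at 240, 227 and 214 CPM in WT-Veh, 210, 216 and 222 in WT-Nut3, 222, 222 and 203 in KO-Veh and 147, 203 and 195 in KO-Nut3. KO-Nut3 was below both WT groups without overlap and met KO-Veh at 203 CPM, and RH6 was far below the rest. The log2 fold change in KO-Nut3 against KO-Veh was -0.25 ± 0.11 (SE), with an edgeR adjusted p of 0.635, and in KO-Nut3 against WT-Veh -0.32 ± 0.11 (SE), with an adjusted p of 0.429. Without RH6 these were -0.12 ± 0.06 (SE), with an edgeR adjusted p of 0.828, and -0.19 ± 0.06 (SE), with an adjusted p of 0.426. With a choroid plexus score term both signs turned, to 0.10 and 0.047. That score was 2.83 to 6.10 in KO-Nut3 and -0.18 to 0.77 in KO-Veh and WT-Veh. The term and the group could therefore hardly be told apart in these fits, and the turned signs are not an adjusted result. Cacnb1 ranged from 125 to 165 CPM and Cacnb2 from 60.4 to 70.9 CPM, both lowest in RH6, whereas Cacnb4 was highest there at 159 CPM against 122 to 149 CPM. The strand counts of Cacnb4 summed to 135% and those of Cacnb2 to 112% of the unstranded count, so reads shared with overlapping genes are missing from both.

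Several of the TARP genes encode proteins that carry AMPA receptors to synapses and slow their closing. Cacng3 was at 53.0, 51.7 and 56.7 CPM in WT-Veh, 59.3, 45.4 and 49.5 in WT-Nut3, 50.9, 50.1 and 44.1 in KO-Veh and 42.5, 46.7 and 47.4 in KO-Nut3. Both KO groups were below WT-Veh without overlap and overlapped with WT-Nut3. Its log2 fold change was -0.15 ± 0.07 (SE) in KO-Veh against WT-Veh, with an edgeR adjusted p of 0.686, and -0.16 ± 0.06 (SE) in all KO against all WT, with an adjusted p of 0.515.

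Cacng5, a less abundant TARP, was at 10.7, 9.35 and 7.36 CPM in WT-Veh, 11.9, 9.44 and 12.8 in WT-Nut3, 9.76, 8.68 and 17.2 in KO-Veh and 22.3, 15.2 and 11.3 in KO-Nut3. KO-Nut3 did not overlap with WT-Veh, RH6 was its highest library, and the other two groups overlapped with both. The log2 fold change in KO-Nut3 against WT-Veh was 0.84 ± 0.24 (SE), interval 0.29 to 1.38, with an adjusted p of 0.322 with edgeR and 0.0466 with DESeq2. Without RH6 the edgeR estimate of that contrast was 0.54 and DESeq2 no longer called the gene, the latter an alternative chosen after seeing the data. It rested on 143 to 180 counts per WT-Veh library and 206 to 402 per KO-Nut3 library.

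Of the other TARP genes, Cacng8, the main hippocampal TARP, ranged from 112 CPM in RH6 to 189 CPM in WT-Veh RH2, Cacng7 from 135 to 174 CPM, Cacng2, which encodes stargazin, from 62.3 to 77.3 CPM, and Cacng4 from 25.0 to 34.2 CPM. Cacng7 and Cacng4 were highest in RH6.

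HCN genes were led by Hcn2, which ranged from 142 to 178 CPM in 11 libraries and reached 206 CPM in RH6. Its log2 fold change in KO-Nut3 against KO-Veh was 0.05 ± 0.13 (SE), with an edgeR adjusted p of 0.949, and without RH6 the sign turned, to -0.14 ± 0.05 (SE) with an adjusted p of 0.557. Hcn3 was steady at 13 to 16.2 CPM.

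Hcn4, the HCN channel best known from the cardiac pacemaker and from the thalamus, was at 3.16, 3.15 and 2.99 CPM in WT-Veh, 3.04, 1.94 and 2.30 in WT-Nut3, 1.96, 1.58 and 1.82 in KO-Veh and 8.21, 1.26 and 1.21 in KO-Nut3. KO-Veh lay below WT-Veh without overlap, and the 5 KO libraries other than RH6 reached 1.96 CPM at most, just above the lowest WT library. In KO-Veh against WT-Veh its log2 fold change was -0.79 ± 0.22 (SE), interval -1.26 to -0.31, with an edgeR adjusted p of 0.599. All KO against all WT gave -0.10 ± 0.41 (SE), with an edgeR adjusted p of 0.971, and -0.87 ± 0.16 (SE) without RH6, with an adjusted p of 0.121. The sign of the Nutlin-3 difference in KO mice rested on RH6: the log2 fold change in KO-Nut3 against KO-Veh was 0.99 ± 0.65 (SE) with it and -0.53 ± 0.30 (SE) without it. The gene is near the lower end of detection, with 22 to 60 counts per library outside RH6 and 148 counts in RH6.

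Genes that work with these channels were examined as 5 lists, and none of their tested members was called by edgeR in any comparison. Of the other pore and auxiliary genes, Scn4a, Scn10a, Scn11a and Cacng1 had too few counts to be tested. Unc79, part of the sodium leak channel complex, had an unadjusted p under 0.05 in all KO against all WT, at a log2 fold change of -0.12, and did not have such a p without RH6. There the genes of the list at such a p were Nalcn, the pore of that channel, and Unc80, another subunit, both lower.

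At such a p, 4.36% of all tested genes were lower and 3.8% higher in that comparison. There 2 of 12 axon initial segment and sodium channel partners were lower and 0 higher, Fgf11 at -0.17 and Cntnap1 at -0.16. Of 16 active zone and calcium channel partners, 4 were lower and 1 was higher, the lower ones being the active zone scaffolds Bsn at -0.20 and Pclo at -0.12, the adaptor Stac2 at -0.16 and the SNARE protein gene Stx1a at -0.14, and the higher one Gem, which encodes a small GTPase, at 0.52. AMPA receptor and TARP partners gave 2 of 12 lower, Dlg4 at -0.13 and Gsg1l at -0.28, and 0 higher, and HCN channel partners gave 0 of 3 in either direction. Without RH6 the counts of these 4 lists did not change, where 5.14% of all tested genes were lower and 3.74% higher at such a p. The medians of the 5 lists ran from -0.08 to 0.02, beside 0.01 for all tested genes.

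In KO-Nut3 against KO-Veh, 3 of 16 active zone partners and 1 of 12 AMPA receptor partners were lower at an unadjusted p under 0.05, Rimbp2 at -0.19, Stx1a at -0.20, Unc13a at -0.16 and Shisa7 at -0.28, and no gene of the 5 lists was higher, against 1.85% of all tested genes lower and 5.75% higher. Without RH6, 2 of the 16 (Rimbp2 and Stx1a) and 1 of the 12 (Shisa7) were lower, against 1.72%. RH6 was the lowest library for 11 of the 16 active zone partners and for 9 of the 12 AMPA receptor partners. In the same contrast 5 of 12 choroid plexus markers were called by edgeR, against 0.199% of all tested genes, and 9 of 12 without RH6, against 0.288%, with Ttr, the most abundant, at a log2 fold change of 8.05 and an adjusted p of 0.0131. The summed choroid plexus level was 3633, 392 and 5195 CPM in KO-Nut3, 47.3, 4855 and 58.7 CPM in WT-Nut3, 34.6 to 56.7 CPM in KO-Veh and 33.5 to 43.6 CPM in WT-Veh, so that it was also high in 1 WT-Nut3 library, RH9. In WT-Nut3 against WT-Veh 0 of the 12 markers were called by edgeR and 12 were higher at an unadjusted p under 0.05, with a median log2 fold change of 4.84, against 1.84% of all tested genes. The part of choroid plexus in the channel values was not tested beyond the fit with its score as a term.

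Meningeal fibroblast markers summed, in CPM, to 138, 264 and 118 in KO-Nut3, 103, 106 and 112 in KO-Veh, 98.7, 118 and 65.7 in WT-Nut3 and 88.0, 205 and 110 in WT-Veh, where RH5 was above all but 1 of the KO-Nut3 libraries. Dcn, the most abundant, was in KO-Nut3 at 20.4, 56.5 and 44.4 CPM, where KO-Veh had 43.1, 56.8 and 56.6 CPM. In KO-Nut3 against KO-Veh 1 of 12 was called by edgeR, the growth factor gene Igf2 at a log2 fold change of 2.75 and an adjusted p of 0.00718, against 0.199% of all tested genes, and 11 of 12 were higher at an unadjusted p under 0.05, against 5.75%, with a list median of 1.37. Without RH6 the same counts stood against 0.288% and 4.66%, with a median of 1.43. The same number, 11 of 12, was higher at such a p in KO-Nut3 against WT-Nut3, against 2.8% of all tested genes, and in the interaction, against 2.9%, with 0 called in both. In KO-Nut3 against WT-Veh 2 of 12 were higher at such a p, against 5.61%, with a median of 0.59, and in KO-Veh against WT-Veh 3 of 12 were lower, against 4.12%, with 11 of 12 below 0 and a median of -0.59. In WT-Nut3 against WT-Veh 11 of 12 were below 0 with a median of -0.56, and 1 was lower at such a p, against 1.34%. The part of meninges in the channel values was not tested.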

How the data were processed

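Poly(A) RNA of 12 hippocampi, 3 mice in each of 4 groups, had been sequenced and aligned by the authors with STAR to mm10, per the labels, and reads were counted per gene. Each deposited file holds whole-number counts per Ensembl gene, not normalized, and the unstranded column was used. The labels and the study's methods differ on the read type, and 12 columns of the series table that matched no label were not used. Rows that name no gene (unmapped, multimapping, no feature, ambiguous) stayed out of library sizes and were 21.2% to 22.6% of the reads in a library.

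Genes with more than 20 counts in total (22592) were tested with edgeR 4.0.16 (R 4.3.3), TMM scaling and the two-sided quasi-likelihood F test, Benjamini-Hochberg adjusted over all of them, at a threshold of 0.05. Group pairs were fitted on their own 6 libraries, and the additive and interaction models on all 12. Standard errors were derived from the F statistic. DESeq2 1.42.0, other filters and scaling, score terms and left-out libraries were the alternatives. The code was tested on simulated data. Log2 CPM values used a prior count of 1. Groups came from the labels. Genes are given in every library where they passed the threshold or were among the 5 smallest unadjusted p under 0.05 in a comparison, and Scn1a, Scn4b and Cacna2d2 were added after their values were seen. The channel genes, the lists and this rule were chosen with earlier results of these data known. A result among the other pore and auxiliary genes is not reported here. Gene names and promoter windows are from the reference tables, and figures were drawn with matplotlib 3.10.9.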

Additional observations from a re-analysis of the deposited data

Results flagged for a closer look

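Each channel gene was examined in 4 overlapping sets of 6 libraries (KO, WT, Nutlin-3 and vehicle), and a library was singled out where its gap to the nearest of the others, divided by the whole range of the set, passed Dixon's 95% critical value for 6 samples. Chance singles out about 1 in 20 groups, and 136 groups were examined, of which 31 passed. The sets share libraries and the genes move together within a library, so the 31 are not independent.

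KO-Nut3 RH6 gave 27 of the 31, over 19 genes. It was the highest library, in 1 or both of the KO and Nutlin-3 sets, for Scn1a at 218 CPM, Scn4b at 81.5 CPM, Cacna2d2 at 80.6 CPM, Hcn4 at 8.21 CPM, Scn9a at 9.48 CPM, Cacnb4 at 159 CPM, Cacng4 at 34.2 CPM and Hcn2 at 206 CPM. It was the lowest, in 1 or both sets, for Scn2a at 322 CPM, Scn8a at 431 CPM, Scn3b at 194 CPM, Cacna1d at 79.4 CPM, Cacna1e at 468 CPM, Cacna1h at 135 CPM, Cacna2d1 at 234 CPM, Cacna2d3 at 86.4 CPM, Cacnb1 at 125 CPM, Cacnb3 at 147 CPM and Cacng8 at 112 CPM. The thalamus marker sum was also highest and the CA pyramidal marker sum lowest in that library, as given with the results.

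In the vehicle set, KO-Veh RH16 was the highest library for Cacng4 at 31.8 CPM and for Cacng5 at 17.2 CPM, and WT-Veh RH2 was the highest for Scn2b at 329 CPM and for Cacna1a at 264 CPM.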

How the results depend on the processing

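No paired analysis was possible because each animal number belongs to 1 library. With edgeR the number of called channel genes was 0 in each of the 8 comparisons, and it moved as follows. It was 1 in KO-Veh against WT-Veh and 1 in all KO against all WT with DESeq2, with the animal-number range as a term and with the thalamus score as a term, and 1 in KO-Veh against WT-Veh with all genes of at least 1 count, each time Cacna1i. Over all genes, those comparisons had 27 and 46 called with DESeq2 and 21 and 10 with the number range. With the thalamus score they had 24 and 9. With all genes of at least 1 count, KO-Veh against WT-Veh had 272 of 35930 called. In KO-Nut3 against WT-Veh the number of called channel genes was 1 with DESeq2 (Cacng5), 2 with all genes of at least 1 count (Cacna1i and Cacng5) and 1 with DESeq2 without RH6 (Cacna1i), an alternative chosen after seeing the data, which also gave 1 in all KO against all WT (Cacna1i). Over all genes, KO-Nut3 against WT-Veh had 218, 416 and 121 called in these fits, in that order. All KO against all WT had 81 called with DESeq2 without RH6. Testing all genes of at least 1 count gave 2 called channel genes in all KO against all WT (Cacna1i and Cacng5) and 1 (Scn4b) in each of KO-Nut3 against KO-Veh, the interaction, and all Nutlin-3 against all vehicle. Over all 35930 genes that filter gave 239 calls in all KO against all WT and 544 in KO-Nut3 against KO-Veh. It gave 291 in the interaction and 539 in all Nutlin-3 against all vehicle. With the filter of more than 20 counts these were 1, 45, 0 and 0 of 22592. Leaving out 1 library at a time gave 0 to 1 called channel genes in all KO against all WT, 1 being Cacna1i without WT-Nut3 RH9 (edgeR adjusted p 0.0484) or without KO-Nut3 RH6, and 0 elsewhere. Of all tested genes, 2 were called without WT-Nut3 RH9 and 10 without KO-Nut3 RH6. The edgeR adjusted p of Cacna1i in KO-Veh against WT-Veh was 0.522 with all 12 libraries in one fit and 0.0738 to 0.561 with 1 library left out, and why it crossed the threshold was not tested. DESeq2 gave an adjusted p to 28 of the 34 genes in all KO against all WT and to 33 in all Nutlin-3 against all vehicle, and the rest entered no count there.

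The log2 fold change of Cacna1i between treatments, near 0 throughout, turned sign 9 times: in KO-Nut3 against KO-Veh to -0.037 with the thalamus score, -0.017 without RH6 and -0.016 with DESeq2 without RH6, in WT-Nut3 against WT-Veh to 0.0025 with the choroid plexus score, and in all Nutlin-3 against all vehicle to 0.026 with the choroid plexus score and to 0.010, 0.021, 0.0027 and 0.010 without WT-Veh RH15, WT-Nut3 RH9, KO-Veh RH10 or KO-Nut3 RH13, the values with 1 library left out running from -0.039 (without RH6) to 0.021. That of Cacnb3 turned with the choroid plexus score to 0.10 in KO-Nut3 against KO-Veh and to 0.047 in KO-Nut3 against WT-Veh. In the comparisons where a gene had an unadjusted p under 0.05, no other sign turned under the alternatives run. Elsewhere, in KO-Nut3 against KO-Veh without RH6, 8 genes turned (Scn1a, Scn4b, Cacna1c, Cacna1i, Cacna2d2, Cacnb4, Hcn2 and Hcn4), of which Hcn4 went from 0.99 to -0.53 and Cacna1c from -0.10 to 0.06. With a choroid plexus score term, the number of channel genes at such a p was 0 in each pair with KO-Nut3 and 3 in all KO against all WT. In KO-Nut3 against KO-Veh or WT-Veh that score itself separated the groups, so term and group could hardly be told apart. With 3 mice a group, the median SE over the 34 genes of 0.07 to 0.11 on the log2 scale in the group pairs limits what could be detected.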

Other observations

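WT-Veh RH2 was the library second to RH6 in extremes, with the highest value of 10 of the 34 channel genes, among them Cacna1e at 727 CPM, Cacna1a at 264 CPM, Scn8a at 558 CPM and Cacng8 at 189 CPM, whereas it held the highest value of 11.5% of all tested genes. In the same library the summed CA pyramidal markers were the highest of the 12 libraries at 1899 CPM, and the summed myelinating oligodendrocyte markers were the lowest at 3724 CPM, against 4398 to 6361 CPM in the other 11. These values were not set against each other in a test.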
